A study of Homo sapiens with 6 samples.

Results

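The G1 phase genes described here are 10 genes that set whether a cell commits to divide: the D-type cyclins CCND1, CCND2 and CCND3, the cyclin-dependent kinases CDK4, CDK6 and CDK2, the kinase inhibitors CDKN1A, CDKN1B and CDKN2A, and the retinoblastoma gene RB1. They were chosen by name, as the rows of a table of 67026 genes whose Ensembl identifiers map to these symbols, and all 10 were found and passed the filter on low counts. The tumours were grown under the skin of male NSG mice (NOD.Cg-Prkdcscid Il2rgtm1Wjl/SzJ, aged 4 to 5 weeks, a strain without T, B and NK cells) from PC-3, a human cell line first derived from a metastasis of prostate cancer. Tumour size was followed for 4 weeks. Before injection the cells had been transduced with a lentiviral short hairpin RNA and selected with puromycin. The hairpin was directed at GFP (shGFP, the knockdown control, 3 xenografts) or at VCAN, the gene for the matrix proteoglycan versican (shVCAN, 3 xenografts). The labels number the xenografts, and each is called a tumour here. No label says that the 3 came from separate mice or transductions, so the p-values measure the spread between these samples only.

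In G1, mitogenic signals raise the D-type cyclins, which bind and activate CDK4 and CDK6. The active kinases, and later CDK2 with cyclin E, phosphorylate the RB1 protein, which then releases the E2F transcription factors that drive genes of DNA replication. The product p16 of CDKN2A blocks CDK4 and CDK6, while p21 (CDKN1A) and p27 (CDKN1B) bind cyclin-CDK complexes more broadly. PC-3 is known to lack functional p53, the main activator of CDKN1A in other cells. Messenger RNA levels do not measure the proteins or their phosphorylation, which control much of this step.

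The 6 libraries held 11253058 to 13327617 counts. VCAN had 133, 104 and 121 counts in shGFP tumours 1, 2 and 3 and 69, 39 and 44 in shVCAN tumours 1, 2 and 3, so the targeted gene was lower in each library labelled as its knockdown (log2 fold change −1.53, SE 0.207, edgeR quasi-likelihood adjusted p = 4.59e-07). Among markers of the cell line, vimentin (VIM) stood at 1871 ± 53.2 CPM (SD, n = 3) in shGFP and 1824 ± 25.9 CPM in shVCAN, and keratin 19 (KRT19) at 600.6 ± 25.1 and 575.5 ± 15.2 CPM. Neither was called. Of the 8 PC-3 and epithelial markers 5 were called lower, beside 21.1% of all genes tested. Their log2 fold changes were −2.20 (CDH1), −0.97 (KRT7), −0.54 (KRT18), −0.29 (EPCAM) and −0.19 (KRT8). The luminal prostate genes KLK2 and KLK3 were listed at 0 in every tumour. A listed 0 does not show absence in these files, since POLR2A, a subunit gene of RNA polymerase II that every cell uses, is also listed at 0. Messenger RNAs of the mitochondrial genome held 13.3% to 16.2% of the counts in shGFP and 6.39% to 7.63% in shVCAN. Whether reads of the mouse host were removed before counting was not stated by the labels. The summed level of 8 skeletal muscle markers was 194.3 to 340.2 CPM in shGFP and 152.9 to 226.8 CPM in shVCAN. ACTA1 alone had 202.3 ± 55.9 and 141.8 ± 32.8 CPM. Of the 5 muscle markers tested, 4 were called lower, beside 21.1% of all genes tested. The source of these counts was not tested.

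Of the 10 genes, CCND2 and CDK4 rose in shVCAN, CCND1, CDK2 and CDKN2A fell, and 5 were not called (edgeR, Benjamini-Hochberg adjusted p under 0.05 over 16254 genes). Of all genes tested 19.2% were called higher and 21.1% lower, 40.3% in all, so 5 of 10 is a share near that of the whole table. The members' median log2 fold change was −0.18, against 0.0014 for all genes tested. In 7 of the 10 genes the groups did not overlap, 2 higher and 5 lower, where the groups were apart in 48.7% of all genes tested (23.9% higher and 24.8% lower). When the libraries were scaled by their size alone, which moved the median log2 fold change of all genes to 0.17, 3 of the 10 genes were called higher and 1 lower. Under that scaling 5228 of all 16254 genes were called higher and 1890 lower, in place of 3120 and 3425. The values below are normalised read counts (CPM, counts per 1000000 counts of the library, with library sizes scaled by TMM, a method that sets most genes to no change), and fold changes are shVCAN over shGFP.

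**Figure D1:**
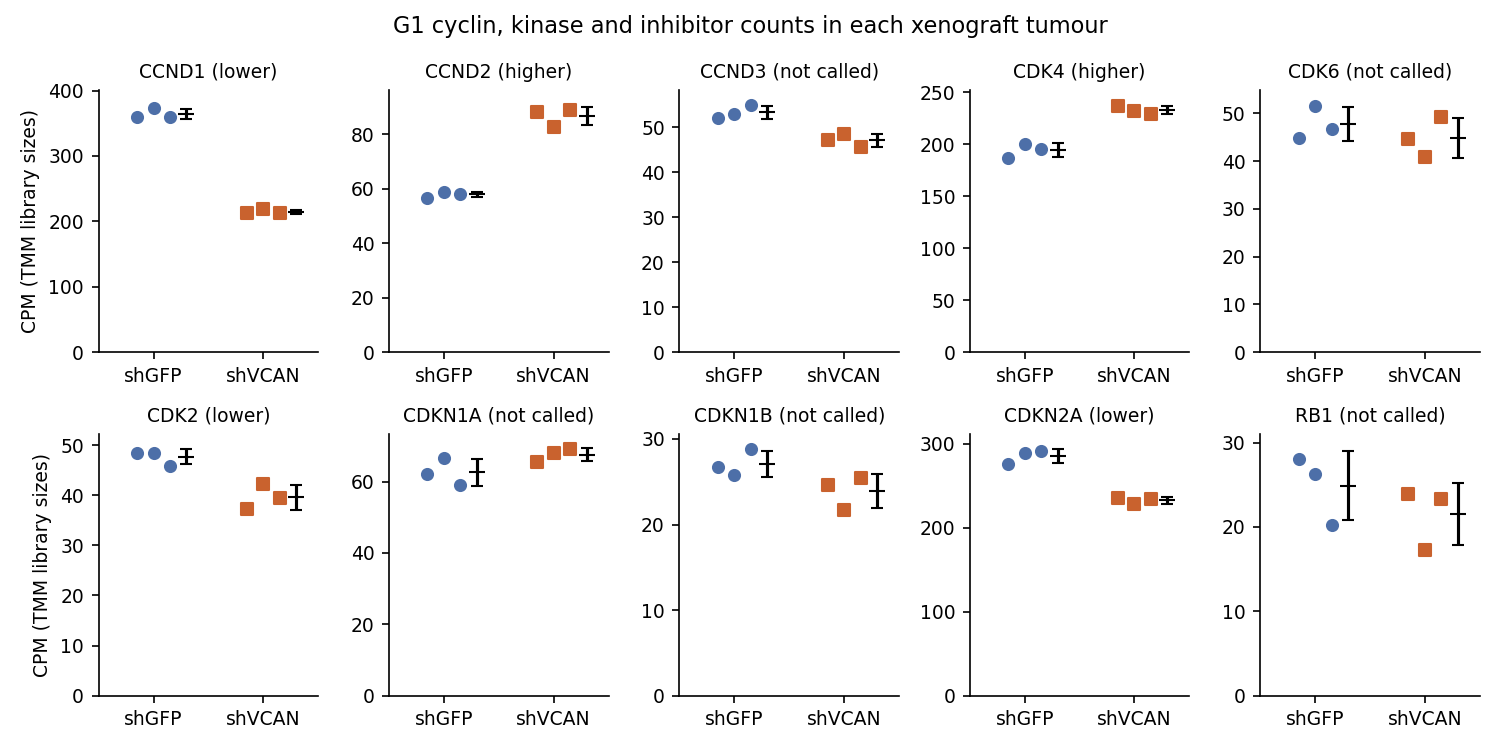
Normalised counts (CPM, linear axis from 0) of the 10 genes in each of the 3 shGFP tumours (circles) and 3 shVCAN tumours (squares), with the mean and SD as a bar beside the points. The groups are apart in CCND1, CCND2, CCND3, CDK4, CDK2, CDKN1B and CDKN2A and overlap in CDK6, CDKN1A and RB1.

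CCND1, which encodes cyclin D1, fell the most of the 10. It lies on chromosome 11 (69641087 to 69654474, plus strand, GRCh38; ENSG00000110092.4). The shGFP tumours 1, 2 and 3 had 359.5, 373.0 and 359.8 CPM, and the shVCAN tumours 1, 2 and 3 had 212.7, 218.5 and 212.8 CPM. Every shVCAN tumour lay below every shGFP tumour, and within each group the tumours were close together, with coefficients of variation of 2.12% and 1.55%. The log2 fold change was −0.76 (SE 0.0485, 95% confidence interval −0.86 to −0.66, edgeR adjusted p = 1.05e-13), a level 1.70-fold lower. In size this change exceeded that of 88.4% of the genes tested. Of the exonic bases of CCND1, 10.3% are also annotated to LTO1 on the other strand, whose log2 fold change was −0.23 (SE 0.0850, edgeR adjusted p = 0.0282).

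CCND2, the gene of cyclin D2, rose. It is on chromosome 12 (4273772 to 4305350, plus strand). Its values were 56.7, 58.6 and 58.2 CPM in the shGFP tumours and 88.0, 82.7 and 88.7 CPM in the shVCAN tumours. The lowest shVCAN tumour was above the highest shGFP tumour, and the log2 fold change was 0.58 (SE 0.0674, interval 0.44 to 0.72, edgeR adjusted p = 3.3e-08). The antisense gene CCND2-AS1, one of the genes that share 13.8% of the exonic bases of CCND2, had 1.95 ± 0.128 CPM in shGFP and 2.11 ± 0.779 CPM in shVCAN. CCND2 is also expressed by stromal cells and endothelium of the host. Of 5 tested endothelial markers 4 were called lower and none higher. Of 6 tested fibroblast and pericyte markers 4 were called lower and 1 higher. Of all genes tested 21.1% were called lower and 19.2% higher. The summed level of 8 endothelial markers was 169.6 to 176.0 CPM in shGFP and 110.4 to 125.2 CPM in shVCAN. That of 8 fibroblast and pericyte markers was 813.8 to 915.6 CPM and 382.9 to 477.3 CPM, and the pericyte gene RGS5 was the 1 called higher (log2 fold change 0.48). Their part in the level of CCND2 was not tested. Most of the fibroblast and pericyte sum was COL1A1, at 591.4 to 661.5 CPM in shGFP and 268.5 to 356.7 CPM in shVCAN. TIE1 was the largest part of the endothelial sum, at 79.9 to 88.4 CPM and 57.5 to 72.4 CPM. Within these lists VWF, CLDN5, EMCN, DCN, LUM and PDGFRB had a mean below 1 CPM over the 6 tumours. Whether host or tumour cells gave the marker counts was not tested. In such bulk samples fewer cells of a type and less RNA per cell cannot be told apart.

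CCND3, encoding cyclin D3, was not called. Its values were 52.1, 52.96 and 55.0 CPM in shGFP and 47.3, 48.5 and 45.6 CPM in shVCAN. Although the groups did not overlap, the log2 fold change of −0.18 (SE 0.0752, interval −0.33 to −0.02) had an edgeR adjusted p of 0.0586. Without shVCAN tumour 2 the value was −0.20 and the adjusted p = 0.0451, and the settings together spanned 0.0451 to 0.924.

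Divided by exonic length, so that genes can be set side by side, the summed level of the D-type cyclins was 91.3, 94.6 and 92.1 CPM per kb in the shGFP tumours. It was 64.5, 65.2 and 64.3 CPM per kb in the shVCAN tumours. CCND1 made up 81.4% ± 0.415 (SD, n = 3) of the sum in shGFP and 68.7% ± 0.60 in shVCAN. CCND2 made up 8.72% ± 0.0903 and 18.7% ± 0.837, and CCND3 9.93% ± 0.327 and 12.6% ± 0.314. Cyclin D1 therefore remained the most abundant D-type transcript in both groups. The groups did not overlap in any of the 3 shares (exact two-sided permutation p = 0.1 for each share, the smallest that 3 against 3 tumours allows). The shares are parts of the same sum and not separate results. The share of CCND3 was larger in shVCAN although its level was lower, at 8.12 ± 0.254 against 9.20 ± 0.253 CPM per kb in shGFP. The level of CCND1 was 9.33 ± 0.143 times that of CCND2 in shGFP and 3.68 ± 0.201 times in shVCAN.

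**Figure D2:**
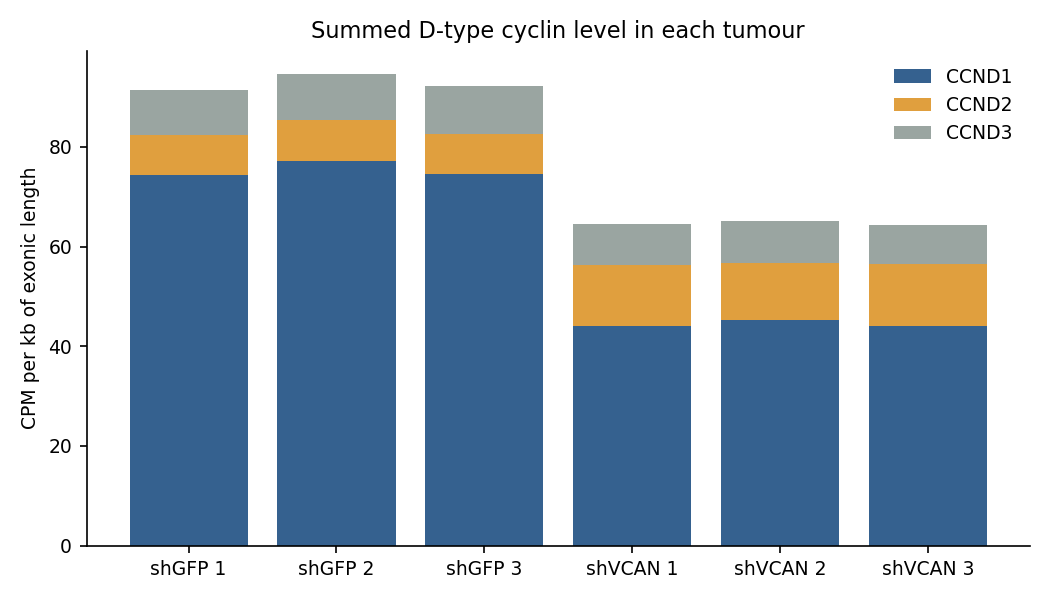
Stacked bars of the levels of CCND1, CCND2 and CCND3 (CPM per kb of exonic length, axis from 0) in each of the 6 tumours. The bars of the shVCAN tumours are lower, at 64.3 to 65.2 against 91.3 to 94.6 CPM per kb, and the part of CCND2 is larger in them.

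Of the kinases, CDK4 rose. CDK4, a partner of all 3 D-type cyclins, lies on chromosome 12 (57747727 to 57756013, minus strand). The shGFP tumours had 187.1, 200.03 and 195.1 CPM and the shVCAN tumours 237.1, 232.1 and 229.2 CPM. All shVCAN tumours were above all shGFP tumours, with a log2 fold change of 0.26 (SE 0.0517, interval 0.16 to 0.37, edgeR adjusted p = 0.000129). TSPAN31, on the opposite strand, shares 43.2% of the exonic bases of CDK4, and the labels do not state whether reads were counted by strand. TSPAN31 itself had 40.4 ± 1.79 CPM in shGFP and 40.3 ± 4.39 CPM in shVCAN, a log2 fold change of −0.0016 with an interval of −0.18 to 0.18.

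Of the other kinases, CDK6 was not called and CDK2 fell. CDK6, the close paralog of CDK4, had 44.9, 51.7 and 46.9 CPM in shGFP and 44.7, 40.9 and 49.2 CPM in shVCAN. Its groups overlapped, and the log2 fold change was −0.09 (interval −0.26 to 0.08, edgeR adjusted p = 0.431), with the sign turned to 0.08 under scaling by library size alone. CDK2, which acts with cyclins E and A at the start of DNA replication, had 48.6, 48.5 and 45.9 CPM in shGFP and 37.2, 42.2 and 39.5 CPM in shVCAN (log2 fold change −0.27, SE 0.0812, edgeR adjusted p = 0.00916). That call was lost without shVCAN tumour 1, the lowest of the 6 (−0.22, adjusted p = 0.0655), and with scaling by library size alone (−0.10, adjusted p = 0.353), and the adjusted p spanned 0.00318 to 0.353 in the alternatives. Of the exonic bases of CDK2, 16.8% are shared with other genes, among them PMEL at 1.06 ± 0.134 CPM in shGFP. Per kb of exonic length, CDK4 was 15.7 ± 0.657 times as abundant as CDK6 in shGFP and 20.2 ± 2.00 times in shVCAN.

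The promoters of CDK4 and CDK6 are printed because the former rose while its paralog was not called. Both are the 250 bases before a RefSeq transcription start on GRCh38.p14, read 5′ to 3′ on the minus strand, at chr12:57752311-57752560 for CDK4 and chr7:92836574-92836823 for CDK6. Capitals mark CACGTG, the canonical E-box, a palindrome that reads the same on both strands and is bound by MYC and related factors.
CDK4: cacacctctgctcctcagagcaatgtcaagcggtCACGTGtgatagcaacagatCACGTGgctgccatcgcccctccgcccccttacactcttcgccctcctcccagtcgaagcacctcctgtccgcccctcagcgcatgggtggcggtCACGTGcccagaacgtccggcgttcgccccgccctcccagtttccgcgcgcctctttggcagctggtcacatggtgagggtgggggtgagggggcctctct
CDK6: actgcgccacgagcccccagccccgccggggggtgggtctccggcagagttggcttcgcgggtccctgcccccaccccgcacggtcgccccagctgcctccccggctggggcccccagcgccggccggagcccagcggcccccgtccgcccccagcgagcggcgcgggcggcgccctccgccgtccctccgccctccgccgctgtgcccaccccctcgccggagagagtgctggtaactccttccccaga
The CDK4 window holds 3 E-boxes, which begin 216, 196 and 101 bases before the start. At least 1 E-box stands in 6.35% of 35116 RefSeq windows of this length, and 3 or more in 28 of them. The CDK6 window holds none, with 1 in the 50 bases after the start. RefSeq windows were matched for 7 of the 10 genes, 11 windows in all, and the CDK4 window alone among these had an E-box. The GC box GGGCGG, on either strand, stood in 7 of the 11 windows and in 42.6% of all windows. Neither TTTCGCGC nor TTTGGCGC (E2F) nor TGACTCA (AP-1), searched on both strands, was found in the 11 windows. Such matches describe letters and not bound sites. MYC itself fell by 0.20 on the log2 scale (SE 0.0601, edgeR adjusted p = 0.00937).

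Among the inhibitors, CDKN2A fell and the other 2 were not called. CDKN2A lies on chromosome 9 (21967753 to 21995301, minus strand) and gives, from separate first exons, p16 and the MDM2 inhibitor ARF, whose transcripts the gene counts add together. It had 276.2, 289.0 and 291.0 CPM in shGFP and 235.5, 228.0 and 233.8 CPM in shVCAN. The groups were clear of each other, with a log2 fold change of −0.30 (SE 0.0496, interval −0.40 to −0.19, edgeR adjusted p = 1.45e-05). With scaling by library size alone the value was −0.13 (adjusted p = 0.0511), the highest of a range that began at 1.53e-07. The neighbouring CDKN2B, which encodes the related CDK4 and CDK6 inhibitor p15, fell from 288.7 ± 14.4 to 221.2 ± 23.8 CPM (log2 fold change −0.39, SE 0.0610, edgeR adjusted p = 6.4e-06). Per kb, the level of CDKN2A was 1.08 ± 0.0176 times that of CDK4 in shGFP and 0.731 ± 0.0142 times in shVCAN.

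CDKN1A, encoding p21, had 62.2, 66.5 and 59.1 CPM in shGFP and 65.5, 68.0 and 69.03 CPM in shVCAN. The groups overlapped, and the log2 fold change was 0.11 (SE 0.0706, interval −0.03 to 0.25, edgeR adjusted p = 0.228). When the libraries were scaled by size alone it was 0.28 and called (adjusted p = 0.00261), which is 0.11 above the median of all genes under that scaling. CDKN1B, encoding p27, had 26.7, 25.8 and 28.8 CPM in shGFP and 24.6, 21.7 and 25.5 CPM in shVCAN. The highest shVCAN tumour lay just under the lowest shGFP tumour, and the log2 fold change was −0.18 (SE 0.104, interval −0.39 to 0.03, edgeR adjusted p = 0.173). With an offset for length and GC content it was −0.27 and called (adjusted p = 0.0269).

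RB1, on chromosome 13 (48303726 to 48599436, plus strand), was the lowest and the most variable of the 10. It had 28.1, 26.3 and 20.3 CPM in shGFP and 24.0, 17.3 and 23.4 CPM in shVCAN. The groups overlapped, and their coefficients of variation were 16.4% and 17.1%, against 1.55% to 9.28% for the other genes. The log2 fold change was −0.21 (SE 0.127, interval −0.47 to 0.05, edgeR adjusted p = 0.195). Its counts, 222 to 337 per tumour, carry a counting error of up to 6.71%, so counting alone does not cover that spread. RB1 was called lower without shGFP tumour 3, the lowest of the controls (−0.33, adjusted p = 0.0448), and with the length and GC offset (−0.29, adjusted p = 0.038), while the alternatives spanned 0.038 to 0.805. Leaving out shVCAN tumour 2 moved the value to −0.07.

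**Figure D3:**
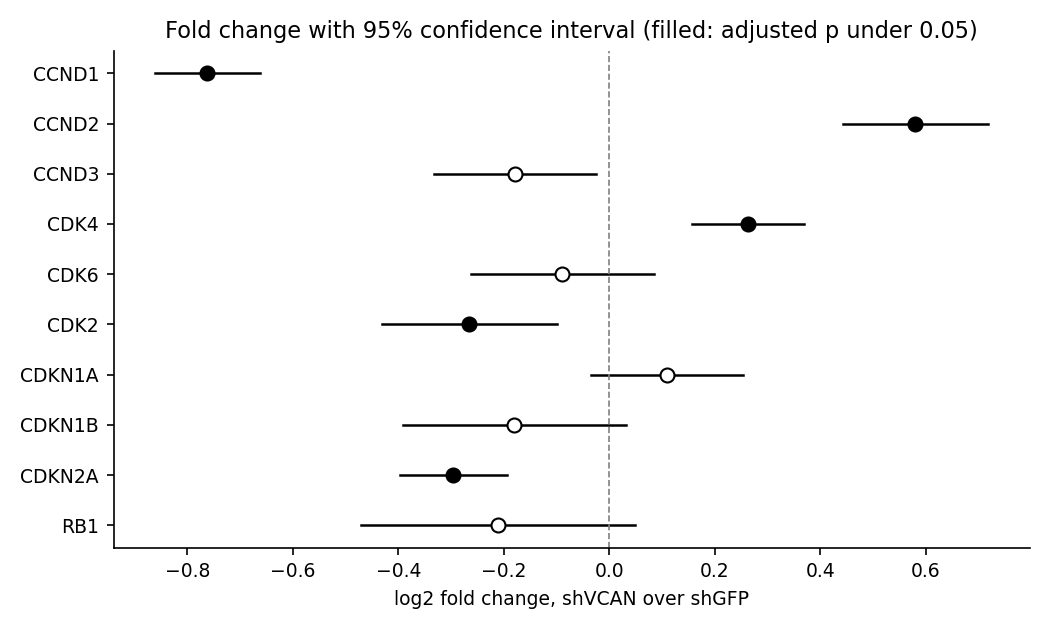
Log2 fold change (shVCAN over shGFP) of the 10 genes with its 95% confidence interval from the edgeR fit. Filled points mark an adjusted p under 0.05: CCND1, CDK2 and CDKN2A lie below 0, and CCND2 and CDK4 above it.

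The order of the levels also differed between the groups. Per kb of exonic length the shGFP tumours ranked CCND1 first at 75.4 ± 1.60 CPM per kb, then CDKN2A at 65.9 ± 1.85 and CDK4 at 61.3 ± 2.06. In shVCAN, CDK4 came first at 73.5 ± 1.25 CPM per kb, then CDKN2A at 53.7 ± 0.908 and CCND1 at 44.4 ± 0.688. These lay within the top 5% of tested protein-coding genes over the 6 tumours, with percentiles of 95.4 to 95.9. CDKN1A came next in both groups, at 20.5 ± 1.22 and 22.1 ± 0.589 CPM per kb. CCND2 stood below CDK2, CDKN1B and CCND3 in shGFP and above them in shVCAN, and CDK6 and RB1 were the lowest in both groups, at 3.34 to 3.90 CPM per kb. Neighbours whose tumours overlapped in level were CDKN1B with CCND3 and CDK6 with RB1, in either group. The ratio of CCND1 to CDK4 was 1.23 ± 0.0261 in shGFP and 0.605 ± 0.0149 in shVCAN.

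The rest of the pathway was read from 8 lists of other genes, 109 of 113 listed genes being tested, of which 34 rose and 22 fell, beside 19.2% and 21.1% of all genes tested. Of 8 tested G1/S cyclins, kinases and activators, 5 rose and none fell, with a median log2 fold change of 0.29. Cyclin A1 (CCNA1), known best from the germline, rose from 46.7 ± 4.30 to 98.1 ± 7.50 CPM, cyclin E2 (CCNE2) from 7.87 ± 1.25 to 13.2 ± 1.01 CPM and cyclin H (CCNH), of the CDK-activating kinase, from 46.2 ± 1.43 to 58.0 ± 2.50 CPM. Cyclin E1 (CCNE1) had 15.02 ± 0.994 and 14.3 ± 0.917 CPM. With the length and GC offset 3 of the 8 were called higher and the median was 0.13. Without shVCAN tumour 2, 1 of the 8 was called lower. CDK7, the kinase partner of cyclin H, held only 16 counts in all 6 libraries together and was not tested. Like the 0 listed for POLR2A, so low a count does not show that CDK7 was hardly expressed.

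Of 5 other inhibitors, CDKN3, CDKN2C and CDKN2D rose, CDKN2B fell and CDKN1C was not called. Their median log2 fold change was 0.38, and 0.58 without shGFP tumour 3. CDKN3, a phosphatase that acts on CDK2 and whose transcript is high in dividing cells, rose from 28.6 ± 3.63 to 48.0 ± 2.17 CPM (log2 fold change 0.75, SE 0.0924, edgeR adjusted p = 1.05e-07). CDKN2C, encoding the CDK4 and CDK6 inhibitor p18, rose from 32.2 ± 1.07 to 41.95 ± 0.582 CPM. The INK4 inhibitors thus moved in both directions, CDKN2A and CDKN2B lower and CDKN2C and CDKN2D higher. With scaling by library size alone the fall of CDKN2A was not called. CDKN2D had an edgeR adjusted p of 0.0136, so its rise was not called at an adjusted p under 0.01. Of the other inhibitors 2 in place of 3 were called higher without shGFP tumour 1 or shVCAN tumour 1. The length and GC offset also gave 2.

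Pocket proteins, E2F and DP factors and MuvB subunits were mostly not called (12 of 16 tested). E2F1, an activator, rose from 52.4 ± 2.75 to 60.6 ± 3.79 CPM, and the repressor E2F7 fell from 33.4 ± 5.43 to 22.9 ± 1.36 CPM. The RB1 relative RBL2 fell (log2 fold change −0.27, edgeR adjusted p = 0.0289), and the MuvB subunit LIN9 rose from 18.6 ± 1.66 to 24.3 ± 2.43 CPM. The count of 2 higher and 2 lower is not stable, since the first ranged down to 0 (without shVCAN tumour 3) and the second to 1 (without shGFP tumours 2 or 3, or shVCAN tumours 2 or 3) when single tumours were left out. The list's median of −0.08 turned to 0.09 with library size alone.

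Genes that turn over G1 cyclins and p27 also moved both ways, 3 higher and 5 lower of 13. The components SKP1 and RBX1 of the SCF ubiquitin ligase rose from 160.9 ± 7.24 to 230.9 ± 2.56 and from 63.2 ± 0.562 to 87.7 ± 1.16 CPM. The cofactor CKS1B rose from 91.3 ± 8.23 to 143.8 ± 12.2 CPM. SKP2, the subunit that recognises p27, fell from 41.5 ± 3.16 to 29.9 ± 0.487 CPM, and AMBRA1, the adaptor that marks D-type cyclins for degradation, from 28.1 ± 0.0757 to 20.8 ± 2.25 CPM. GSK3B, CRYAB and USP2 were the other 3 that fell. The median of −0.12 turned to 0.05 with library size alone and to 0.02 with the length and GC offset, and it was −0.06 without shGFP tumour 3 and −0.08 without shVCAN tumour 2.

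Of 20 S phase genes with E2F sites, 6 rose, 2 fell and 12 were not called, with a median of 0.09. That median was 0.17 without shGFP tumour 2, and 1 gene was called lower without shGFP tumour 2 or shVCAN tumour 3. TYMS and PCNA rose (log2 fold changes 0.58 and 0.43), and MCM3 fell by 0.48 on the log2 scale. Of 12 proliferation markers 9 rose and none fell, with a median of 0.37, where 19.2% of all genes were called higher and 21.1% lower. Without shVCAN tumour 2, 1 of the 12 was called lower. The classical marker MKI67 was among the 3 not called, at 74.03 ± 2.65 and 68.2 ± 5.48 CPM. Of 19 tested p53 target genes 6 rose and 2 fell, with a median of 0.16. The median was 0.11 without shVCAN tumour 1, and 1 gene was called lower without shGFP tumour 1. MDM2 rose from 65.5 ± 4.84 to 90.4 ± 9.66 CPM and CCNG1 from 48.0 ± 3.17 to 63.8 ± 5.51 CPM, whereas the death receptor gene TNFRSF10B fell from 205.3 ± 8.48 to 175.7 ± 9.32 CPM. With library size alone 13 S phase genes and 12 p53 targets were called higher, as were 5228 of all 16254 genes tested.

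Transcription factors with known sites at CCND1 were the list with most falls. Of 16 tested, 10 fell, none rose and 6 were not called, with a median of −0.24, where 21.1% of all genes were called lower. The 10 include EGR1, with only 7 to 22 counts per tumour, and STAT3, at 8.17 ± 0.923 CPM in shGFP and 2.49 ± 1.22 CPM in shVCAN. The smallest of the 10 falls was that of JUND (log2 fold change −0.15). Which cells gave these counts was not tested. ETS1 had 211.7, 228.0 and 238.8 CPM in shGFP and 137.2, 122.9 and 135.1 CPM in shVCAN (log2 fold change −0.78, SE 0.0586, edgeR adjusted p = 4.31e-12). JUNB, a subunit of AP-1, fell from 60.8 ± 4.13 to 31.6 ± 2.93 CPM, and its partner FOS from 6.99 ± 1.25 to 2.19 ± 0.216 CPM. The AP-1 subunits JUN and FOSL1 were not called, at 435.4 ± 7.59 and 412.9 ± 7.04 CPM and at 102.6 ± 0.540 and 102.7 ± 10.8 CPM. With library size alone 6 of the 16 were called lower and 2 higher. Of all 16254 genes tested, 1890 were then called lower and 5228 higher.

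**Figure D4:**
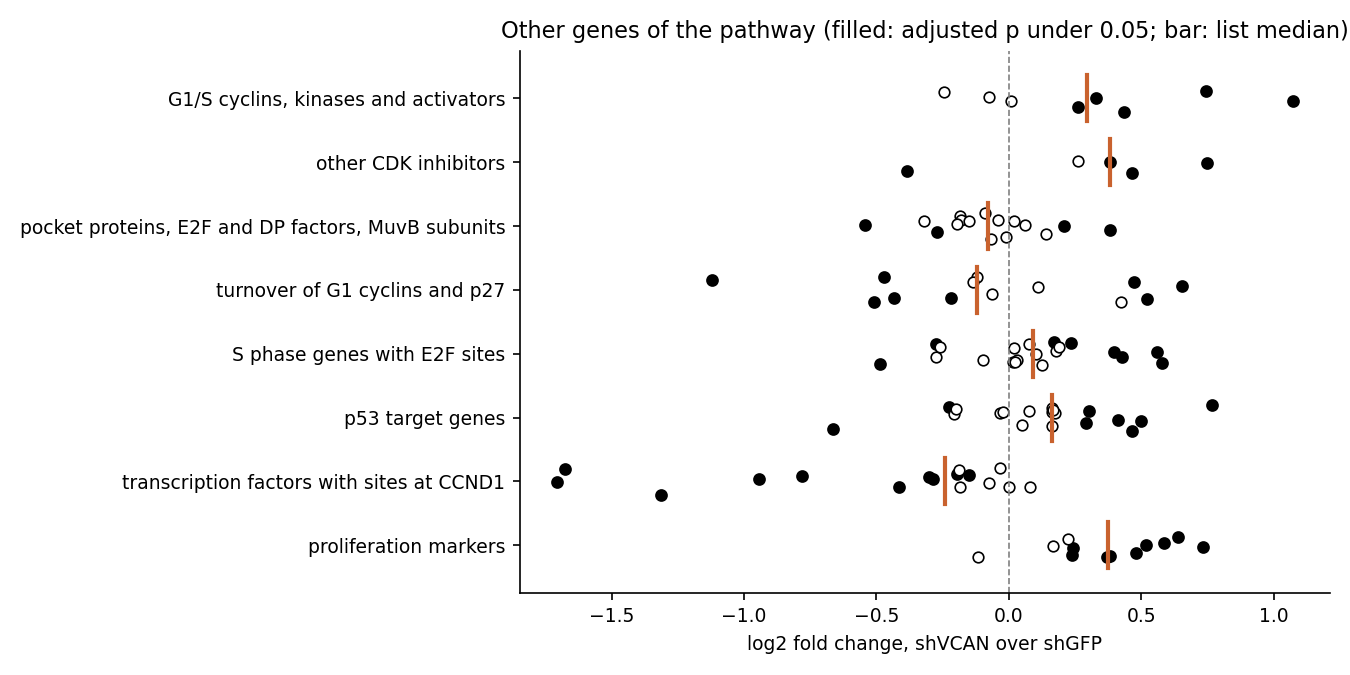
Log2 fold change (shVCAN over shGFP) of each tested gene in the 8 lists of other pathway genes. Filled points have an adjusted p under 0.05 and the vertical bar is the list's median, from −0.24 for the transcription factors to 0.38 for the other inhibitors.

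The genes whose profile over the 6 tumours was nearest to that of CCND1, by Euclidean distance of centred log2 CPM among 13160 other protein-coding genes, were TGFB1, IRF2BPL and CLDN4. Their log2 fold changes were −0.75, −0.75 and −0.74, at distances of 0.0497, 0.0501 and 0.0710. With 2 groups of tumours such likeness mostly reflects a fold change of the same size.

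**Figure D5:**
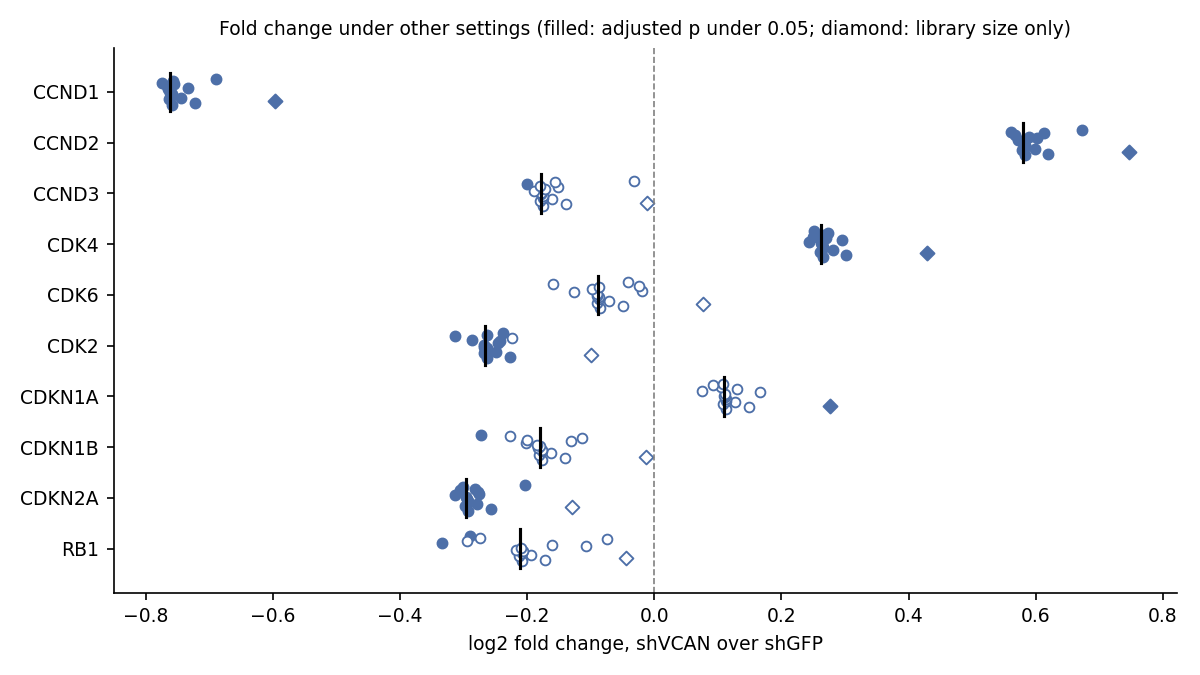
Log2 fold change (shVCAN over shGFP) of the 10 genes under each of 16 other settings (points, filled where the adjusted p is under 0.05), with the reported value as a black bar. Diamonds mark scaling by library size alone, which moved every gene to the right, and CCND1, CCND2 and CDK4 are filled throughout.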

How the data were processed

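RNA of 6 xenograft tumours (3 shGFP, 3 shVCAN) was sequenced as paired reads. The deposited values are whole-number counts for each gene, not normalised. The submitters' processing notes name Trim Galore, STAR, DESeq2 and hg38, with no version or order. For the counter, its annotation and its strand setting the sources used here give nothing. Of 67071 rows, 45 pseudoautosomal copies with 0 counts were left out. Symbols came from a table of identifiers, and coordinates and exonic lengths from GENCODE 29 (GRCh38). CPM per kb divides by the union of exons, which is longer than most single transcripts.

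The main test was edgeR's quasi-likelihood test (version 4.0.16, R 4.3.3, TMM, filterByExpr, 16254 genes, group as the only term). The SE is the fold change divided by the square root of F. The fit was tested on simulated data. Counting error alone does not cover amplification. Within groups the chi-square per gene between libraries was 3.45 to 6.61, more than sequencing the same library again would give. That spread cannot tell separate tumours from separate pieces or preparations of the same tumour. The 17 alternatives were other scalings, filters, tests (DESeq2 1.42.0, limma-voom 3.58.1), a replicate block, each tumour left out, a length and GC offset (98.4% of genes had both values) and an adjusted p under 0.01.

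The members and lists were chosen with earlier results of these data known. Named genes are the 10 members, VCAN, up to 3 called genes of smallest p per list, markers, and the 3 nearest profiles to the member of smallest p. Named outside that rule, after their values were seen, are genes that overlap or neighbour a member (LTO1, CCND2-AS1, TSPAN31, PMEL), POLR2A, and list genes given within a count.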

Additional observations from a re-analysis of the deposited data

How the results depend on the processing

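CCND1, CCND2 and CDK4 kept their direction and their call in all 17 alternatives, with log2 fold changes of −0.77 to −0.60, 0.56 to 0.75 and 0.24 to 0.43. Scaling by library size alone gave 1 gene called lower in place of 3, and among the other pathway genes 56 higher and 13 lower in place of 34 and 22. Among all 16254 genes tested it gave 5228 higher and 1890 lower, in place of 3120 and 3425. It also turned the log2 fold change of CDK6 to 0.0763, and the medians of the pocket protein and turnover lists to 0.0881 and 0.0475. The length and GC offset gave 5 of the 10 genes called lower, with CDKN1B and RB1 added, and turned the turnover median to 0.0181. The share of the D-type cyclin sum changed by −12.6 (CCND1), 9.97 (CCND2) and 2.64 (CCND3) percentage points. As shares of counts, without division by length, the changes were −15.0, 12.7 and 2.30 points, a shift that follows from the lengths. Leaving out 1 tumour at a time gave 2 genes higher in each case and 2 to 4 lower, and 29 to 36 higher and 18 to 23 lower among the other pathway genes. VCAN ranged from −1.83 to −1.36 in those fits. With the replicate block 2 of the 10 genes were called higher and 3 lower, as without it, and the pathway lists had 35 higher and 22 lower. Same-numbered tumours did not deviate together (correlations of 0.0176, 0.0157 and −0.0271), so the numbers were not taken as pairs. Where leaving out a tumour left an arm with 2 tumours, the spread was pooled over both arms. The cause of the other changes was not tested. RB1 and CDKN1B had the fewest counts of the 10 genes, 222 to 349 per tumour, but counting error does not cover the spread of RB1.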
